A study of Mus musculus with 6 samples.

Results

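A group of 10 genes that encode membrane-bound or small interferon-induced antiviral proteins was followed in mouse cells in which Ifit1 was knocked down. They are Ifitm1, Ifitm2, Ifitm3, Bst2, Samd9l, Ifi27, Xaf1, Ifi35, Rtp4 and Lgals3bp. They were chosen by name, with earlier results of these data known, and all 10 stand among the 19877 genes of the deposited table. Messenger RNA was sequenced from 3 libraries of cells carrying a short hairpin against Ifit1 (knockdown) and 3 carrying a scrambled hairpin, from ADSCs of genotype WT in both groups. The labels use only the abbreviation ADSC, which commonly stands for adipose-derived stem cell, a multipotent stromal cell of fat. They name no age, sex, strain or added agent, and the sources used here do not give the hairpin's target position. The libraries fall into 3 batches, each with 1 knockdown and 1 scrambled library, numbered alike. Nothing states that the libraries came from separate cultures, so the p-values rest on a spread between samples that may be only technical. Levels are in FPKM, which scales a gene's fragments by its length and by the size of the library, and 32213063 to 40569646 recovered fragments lay behind a library.

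Interferons are secreted signals of infection. They bind receptors on the cell surface and activate the JAK kinases, which send a complex of transcription factors that includes STAT2 and IRF9 into the nucleus, where it binds a DNA motif called the interferon-stimulated response element. Many genes near such motifs are then transcribed, and many of their products block a step of viral growth. The proteins followed here act mostly at membranes or as small regulators, from the entry of the virus to its release. IFIT1 is itself the product of such a gene and binds the ends of foreign RNA.

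Ifit1 RNA was lower in each knockdown library than in any scrambled library, with means (SD, n = 3 each) of 1.58 ± 0.151 FPKM in knockdown and 4.54 ± 0.685 FPKM in scrambled libraries, which leaves 34.9% of the scrambled mean. Among stromal markers, Col1a1 stood at 596 to 751 FPKM in knockdown and 1155 to 1333 FPKM in scrambled libraries, Pdgfrb at 13.3 to 17.4 and 23.3 to 25.5 FPKM, and Thy1 at 36.6 to 40.4 and 50.9 to 52.7 FPKM. Of 12 tested stromal markers, 7 fell, 3 rose and 2 did not pass (Vcam1 and Dcn). By the same test, described below, 31.1% of all tested genes were called lower and 19.8% higher. Cd44 rose (111 to 122 against 74.9 to 86.6 FPKM), as did Alcam (14.0 to 14.4 against 9.35 to 9.95 FPKM) and Itgb1 (300 to 329 against 295 to 297 FPKM). Markers of blood cells were near 0: Ptprc, which marks all leukocytes, reached 0.00524 FPKM in a knockdown library and was listed at 0 in the scrambled ones. The 5 macrophage markers in the table (of 6 listed) summed to 1.75 to 2.21 FPKM in knockdown and 1.99 to 2.51 FPKM in scrambled libraries, most of it Cd68. The 5 lymphocyte and dendritic cell markers in the table (of 7 listed) summed to 1.48 to 1.60 and 2.12 to 2.25 FPKM, most of it Tcf4, which stromal cells also express. The 5 endothelial markers were each below 0.1 FPKM in all 6 libraries. The 6 epithelial or mesothelial markers summed to 96.9 to 97.2 FPKM in knockdown and 87.2 to 98.0 FPKM in scrambled libraries, and 2 of them were abundant. Krt19 rose (78.5 to 83.6 against 66.4 to 70.6 FPKM) and Msln fell (13.1 to 17.7 against 17.5 to 25.4 FPKM). The part of these differences in the results below was not tested, and in bulk RNA fewer cells of a type and less RNA per cell cannot be told apart.

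In knockdown libraries 8 of the 10 effector genes fell, and these 8 were all that could be tested. Genes entered the test when 3 or more of the 6 libraries reached 1 FPKM, and limma compared log2(FPKM + 0.5), with Benjamini-Hochberg adjustment over 10311 tested genes and a threshold of 0.05. In this comparison 31.1% of all tested genes were called lower and 19.8% higher, 51% in all. The 10 genes were chosen with earlier results known, so setting them beside this share is no test of them. On the same scale the 8 genes had a median log2 fold change of −0.87, and all tested genes a median of −0.05. For all 8 genes the highest knockdown library lay below the lowest scrambled one, which held for 37.3% of tested genes. A log2 fold change of −1 or lower was reached by Lgals3bp, Ifi27 and Rtp4, as for 1.09% of tested genes. Rtp4 passed the filter only through the scrambled libraries, so it had to differ, while the other 7 were above 1 FPKM in every library. Ifitm1 and Xaf1 were below the filter.

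**Figure D1:**
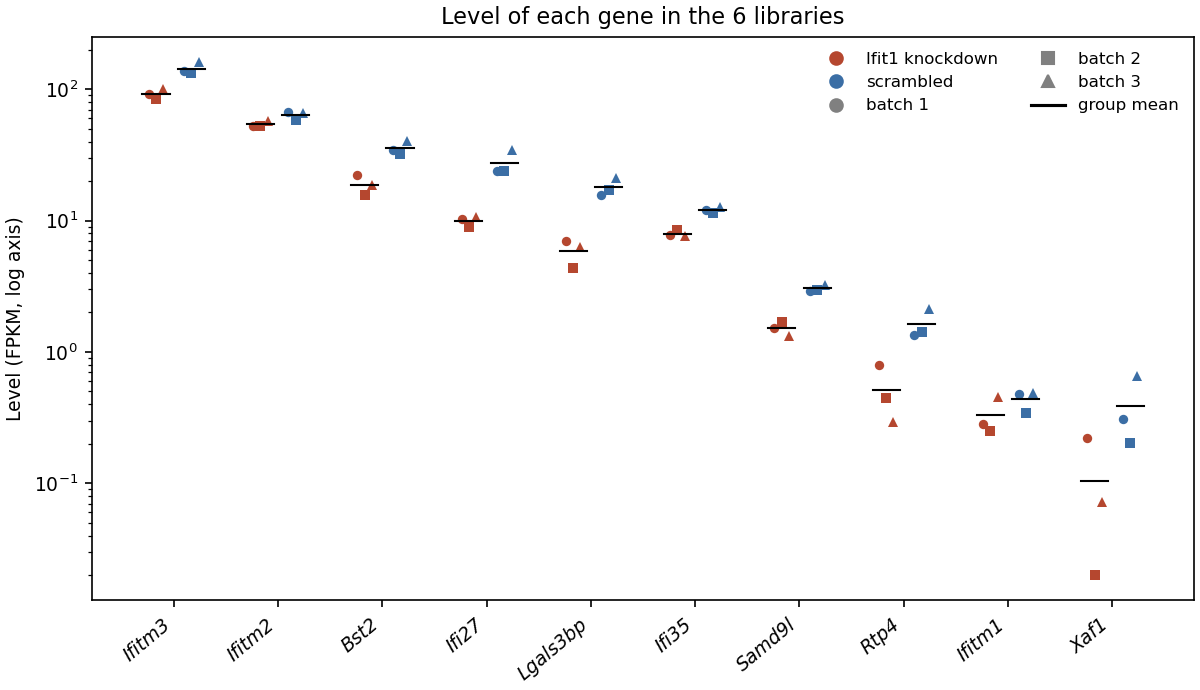
Level of the 10 effector genes in FPKM (log axis), with 1 point per library, knockdown in red left of scrambled in blue, marker shapes for the 3 batches and a bar at each group mean, genes ordered by their mean level. The groups are apart for 8 genes, from Ifitm3 at 84.0 to 101 against 133 to 160 FPKM to Rtp4 at 0.293 to 0.792 against 1.34 to 2.11 FPKM, and overlap for Ifitm1 and Xaf1.

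The IFITM proteins are small membrane proteins that sit at the cell surface and in endosomes and hinder the fusion of viral with cellular membranes. IFITM3, which acts in late endosomes and is the best known restrictor of influenza virus among them, had the highest FPKM of the 10 genes, an order that depends on the length used for Ifitm2. Ifitm3 (Entrez 66141, chromosome 7, positions 141009586 to 141010770 of GRCm38, minus strand, 2 exons) had 92.4, 84.0 and 101 FPKM in knockdown libraries 1, 2 and 3, against 137, 133 and 160 FPKM in scrambled libraries 1, 2 and 3. Every knockdown library was below every scrambled one. Ifitm3 had a log2 fold change of −0.63 ± 0.08 (SE, limma adjusted p = 0.000353), which left 64.5% of the scrambled mean. Coordinates are those of the GENCODE M21 annotation, since the deposited table holds none.

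Ifitm2 (Entrez 80876, chromosome 7, 140954837 to 140955987, minus strand, 2 exons), whose product resides mainly in endosomes, fell by the smallest amount of the 8. It had 52.3, 52.7 and 57.7 FPKM in knockdown libraries, against 67.3, 57.9 and 65.7 FPKM in scrambled libraries. The groups were nearly touching, since knockdown library 3 (57.7) and scrambled library 2 (57.9) differed by less than the spread within either group. Ifitm2 had a log2 fold change of −0.23 ± 0.06 (limma adjusted p = 0.0132). The call was lost without scrambled library 1 (−0.18, adjusted p = 0.0512) and without the filter on low values (adjusted p = 0.0594).

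Set against each other within a library, Ifitm3 stood lower relative to Ifitm2 in each knockdown library. The ratio of Ifitm3 to Ifitm2 within a library was 1.77, 1.59 and 1.75 in knockdown libraries, against 2.04, 2.29 and 2.44 in scrambled libraries. The 2 sets of ratios did not overlap, and their means (SD, n = 3 each) were 1.70 ± 0.0957 in knockdown and 2.25 ± 0.204 in scrambled libraries. A two-sided exact permutation test gave p = 0.1, the smallest that 3 libraries against 3 allow, and p = 0.133 after adjustment over the 4 ratios compared. Which of the pair is more abundant depends on the gene length: Ifitm2 had more fragments than Ifitm3 in each of the 6 libraries (2857 to 3900 against 1770 to 2652 in knockdown, and 3606 to 4587 against 3213 to 3944 in scrambled). Its FPKM is lower because the authors' values imply a length of 1681 bases for Ifitm2, where the GENCODE M21 transcript has 655. The lengths implied for Rtp4 (2971 bases against 1859 in the longest GENCODE transcript) and Xaf1 (6167 against 2597) are longer as well, so their FPKM would be higher by the shorter models. Length scales all libraries alike and leaves the ratio between groups as it is, but it moves a level and its place relative to the filter.

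Ifitm1 (Entrez 68713, chromosome 7, 140967221 to 140969825, plus strand), whose product stays at the plasma membrane, was close to absent. It had 0.282, 0.249 and 0.457 FPKM in knockdown libraries, from 9, 7 and 16 fragments, against 0.481, 0.340 and 0.487 FPKM in scrambled libraries, from 17, 11 and 16 fragments. The groups overlapped. Counting error alone spans 0.10 to 0.513 FPKM for the 7 fragments of knockdown library 2 (exact 95% Poisson interval, which covers counting error only). Without the filter the log2 difference was −0.18 (limma adjusted p = 0.338), so no difference was detectable at this depth.

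Near-identical stretches limit how well reads of the IFITM genes can be told apart. Of all 50-base stretches in the GENCODE transcripts of Ifitm2, 48.5% also occur in a transcript of another gene, among them the overlapping model Gm45717, and 3.3% occur in Ifitm3. For Ifitm3 the shares were 10% and, with Ifitm1 or Ifitm2, 5.56%. For Ifitm1 they were 5.02% and 1.42%. The sources used here do not say how reads that match several genes were counted. The other named IFITM genes were scarce: Ifitm5 reached 0.624 FPKM at most and Ifitm6 0.0494 FPKM. Ifitm10 had means (SD, n = 3 each) of 0.373 ± 0.0343 FPKM in knockdown and 0.228 ± 0.0221 FPKM in scrambled libraries, the opposite direction to Ifitm2 and Ifitm3. Its groups did not overlap and it was below the filter, without which it was called higher (0.26, limma adjusted p = 0.0119).

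The start regions searched for these neighbouring genes differ in exact matches to the core of the motif that this interferon-activated complex binds. The core of the interferon-stimulated response element (TTTC, any 2 bases, TTTC) was searched on both strands, as GAAA, any 2 bases, GAAA on the other, in windows from 250 bases before to 50 bases after the start of transcription (RefSeq, GRCm38.p6), which the table gave for 8 of the 10 genes, not Ifi27 and Rtp4. The windows of 3 of the 8 genes held a match, those of Bst2, Ifitm2 and Ifitm3, as did 3.44% of all windows in the table and 2.83% of those of tested genes. The windows of 4 genes are printed 5′ to 3′ on the gene's strand with matches in capitals, to set the 3 with a match beside that of Ifitm1, which lies between the other two IFITM genes. They are Ifitm3 at chr7:141010695-141010994 (minus), Ifitm2 at chr7:140955912-140956211 (minus), Ifitm1 at chr7:140967826-140968125 (plus) and Bst2 at chr8:71537423-71537722 (minus).
Ifitm3: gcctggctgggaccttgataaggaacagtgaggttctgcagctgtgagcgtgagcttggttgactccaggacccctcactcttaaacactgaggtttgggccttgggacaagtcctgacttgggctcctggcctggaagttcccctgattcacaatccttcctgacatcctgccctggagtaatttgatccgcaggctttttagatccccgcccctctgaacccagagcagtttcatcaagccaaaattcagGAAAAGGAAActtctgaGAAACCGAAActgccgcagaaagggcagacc
Ifitm2: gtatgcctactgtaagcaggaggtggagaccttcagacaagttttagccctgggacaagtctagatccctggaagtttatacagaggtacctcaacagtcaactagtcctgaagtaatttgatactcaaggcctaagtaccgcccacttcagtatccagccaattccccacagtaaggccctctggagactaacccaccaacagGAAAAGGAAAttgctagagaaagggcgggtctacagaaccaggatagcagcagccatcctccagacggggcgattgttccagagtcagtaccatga
Ifitm1: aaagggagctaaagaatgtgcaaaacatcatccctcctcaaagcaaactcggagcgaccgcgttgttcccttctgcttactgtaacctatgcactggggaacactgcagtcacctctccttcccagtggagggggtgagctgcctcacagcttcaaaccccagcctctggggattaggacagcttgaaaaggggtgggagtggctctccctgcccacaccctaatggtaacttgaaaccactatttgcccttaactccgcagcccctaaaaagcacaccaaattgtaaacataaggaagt
Bst2: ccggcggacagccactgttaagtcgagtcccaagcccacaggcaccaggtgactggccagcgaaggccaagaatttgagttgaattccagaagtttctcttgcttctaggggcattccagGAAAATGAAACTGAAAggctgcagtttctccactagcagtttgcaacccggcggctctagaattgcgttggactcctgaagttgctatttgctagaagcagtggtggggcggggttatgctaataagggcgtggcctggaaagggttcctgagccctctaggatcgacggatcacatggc
Counted from the start of transcription, the matches began at 3 and 20 in Ifitm3, at −46 in Ifitm2, and at −130 and −124, overlapping each other, in Bst2. The first match of Ifitm3 and the match of Ifitm2 have the same letters, GAAAAGGAAA. No such letters stand in the printed window of Ifitm1 or in those of Xaf1, Samd9l, Ifi35 and Lgals3bp. The last 3 of these fell in knockdown libraries. Other starts of a gene and near matches to the core were not searched, so a window without a match may still hold a similar stretch. The window of Ifitm1 lies inside its GENCODE model, which begins at 140967221. Ifit1 itself has 2 matches, at −104 and −85. The letters TTCNNNGAA, the GAS motif of interferon-gamma responses, stood in the windows of Bst2, Ifitm3 and Ifi35, and in 8.3% of all windows. In Bst2 the GAS match (TTCCAGGAA, at −136) overlaps the first response element, and in Ifitm3 it (TTCTGAGAA, at 14) overlaps the second. A match of letters is a description and not a binding site.

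Bst2 encodes tetherin, which is anchored in the membrane at both ends and holds budding viruses on the cell that made them. Bst2 (Entrez 69550, chromosome 8, 71534255 to 71537456, minus strand, 5 exons) had 22.0, 15.6 and 18.6 FPKM in knockdown libraries, against 34.6, 32.2 and 40.5 FPKM in scrambled libraries. The highest knockdown value was below the lowest scrambled one. On the log2 scale Bst2 differed by −0.92 ± 0.12 (limma adjusted p = 0.000374), which left 52.4% of the scrambled mean. Bst2 also marks plasmacytoid dendritic cells in mice. Of the lymphocyte and dendritic cell markers, Ptprc was at or near 0 in these libraries. Tcf4, the only 1 of them tested, was called lower (−0.36, limma adjusted p = 0.00581). The part of cell makeup in the fall of Bst2 was not tested.

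Samd9l encodes a large cytosolic protein that restricts poxviruses and restrains cell growth. Samd9l (Entrez 209086, chromosome 6, 3372257 to 3399572, minus strand, 2 exons) had 1.52, 1.70 and 1.31 FPKM in knockdown libraries, against 2.92, 2.97 and 3.25 FPKM in scrambled libraries. The scrambled values lay close together and above all knockdown values. Samd9l had a log2 fold change of −0.82 ± 0.09 (limma adjusted p = 0.000146), and the knockdown mean was 49.5% of the scrambled mean, from 291 to 307 fragments in knockdown and 609 to 676 in scrambled libraries. Low-abundance genes leaned lower in knockdown as a class: the 1771 tested genes with a mean under 3 FPKM had a median log2 fold change of −0.18, and 39.1% of them were called lower. That class holds Samd9l and Rtp4. After a cyclic loess fit, which removes a trend of the difference with level, the log2 fold change was −0.65 for Samd9l and −0.84 for Rtp4, and both remained called.

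Among the small mitochondrial or nuclear-envelope and apoptosis-related products, Ifi27 fell and Xaf1 was too low to test. Ifi27, known in mice as Isg12, encodes a small hydrophobic protein. Ifi27 (Entrez 52668, chromosome 12, 103434211 to 103440239, plus strand) had 10.3, 8.93 and 10.6 FPKM in knockdown libraries, against 24.0, 23.9 and 34.2 FPKM in scrambled libraries. Each scrambled library held over 20 FPKM and no knockdown library reached 11. Ifi27 had a log2 fold change of −1.40 ± 0.13 (limma adjusted p = 7.97e-05), the 38th lowest of the 10311 tested genes, and the knockdown mean was 36.4% of the scrambled mean. Its paralogs Ifi27l2a and Ifi27l2b were scarce, and their groups overlapped. Ifi27l2a had 0.368, 0.209 and 0.168 FPKM in knockdown libraries, against 0.111, 0.696 and 1.37 FPKM in scrambled libraries. No 50-base stretch of Ifi27 occurs in another gene's transcripts.

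XAF1 binds the caspase inhibitor XIAP and opposes it. Xaf1 (Entrez 327959, chromosome 11, 72301629 to 72313733, plus strand) had 0.222, 0.0201 and 0.0726 FPKM in knockdown libraries, against 0.308, 0.201 and 0.650 FPKM in scrambled libraries. The groups overlapped through knockdown library 1, which lay above scrambled library 2. Knockdown library 2 held 4 fragments and scrambled library 3 held 151. Without the filter the log2 difference was −0.53 (limma adjusted p = 0.127). Xiap itself, with means (SD, n = 3 each) of 3.21 ± 0.157 FPKM in knockdown and 3.60 ± 0.189 FPKM in scrambled libraries, did not pass (−0.15, limma adjusted p = 0.0864, 95% interval −0.29 to −0.00), with a call that depended on the setting. It was called lower after rescaling to TPM (−0.20, adjusted p = 0.0397), without the variance trend (adjusted p = 0.0497) and with limma-voom (adjusted p = 0.00993), and its sign turned under quantile normalization (0.02). The ratio of Xaf1 to Xiap overlapped between the groups (two-sided exact permutation p = 0.2).

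Ifi35 and its binding partner Nmi both fell. IFI35 is a leucine zipper protein that forms a cytosolic complex with NMI and tunes the innate response. Ifi35 (Entrez 70110, chromosome 11, 101448407 to 101458698, plus strand, 7 exons) had 7.71, 8.41 and 7.60 FPKM in knockdown libraries, against 12.1, 11.4 and 12.8 FPKM in scrambled libraries. Both groups were tight and far apart, and Ifi35 differed on the log2 scale by −0.58 ± 0.06 (limma adjusted p = 0.000107). The antisense gene Gm11626 overlaps Ifi35, and strand was not given, so their reads cannot be told apart. Nmi had 0.787, 0.595 and 0.611 FPKM in knockdown libraries, against 1.92, 1.65 and 2.94 FPKM in scrambled libraries. Nmi passed the filter only through the scrambled libraries (log2 fold change −1.17 ± 0.17, limma adjusted p = 0.000580). The ratio of Ifi35 to Nmi within a library averaged (SD, n = 3 each) 12.1 ± 2.18 in knockdown and 5.84 ± 1.33 in scrambled libraries, with no overlap (two-sided exact permutation p = 0.1, the smallest possible, adjusted p = 0.133). Since Nmi had to differ to pass the filter in this way, the ratio and its p only describe these libraries.

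RTP4 is a chaperone that carries receptors to the cell surface and, in mammals, also binds viral RNA. Rtp4 (Entrez 67775, chromosome 16, 23520291 to 23614222, plus strand) had 0.792, 0.449 and 0.293 FPKM in knockdown libraries, from 86, 43 and 35 fragments, against 1.34, 1.41 and 2.11 FPKM in scrambled libraries, from 162, 155 and 236 fragments. Batch 3 held both its lowest knockdown and its highest scrambled value. Rtp4 had a log2 fold change of −1.08 ± 0.19 (limma adjusted p = 0.0020), while the ratio of the knockdown to the scrambled mean was 0.316, since the added 0.5 shrinks the change of so low a gene. The log2 value was −1.55 with 0.1 added, −1.75 with limma-voom on recovered fragments and −0.72 under quantile normalization. Masp1, which overlaps Rtp4 on the opposite strand and was named after its values were seen, did not pass (0.13 on the log2 scale, limma adjusted p = 0.156). The paralogs Rtp1 and Rtp2 were listed at 0 in 5 of the 6 libraries each.

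Lgals3bp, the only member whose product is secreted, had the largest fall of the 8 tested genes on the log2(FPKM + 0.5) scale. It encodes a glycoprotein that binds galectin-3 and the matrix and is also released on vesicles. Lgals3bp (Entrez 19039, chromosome 11, 118392751 to 118402092, minus strand, 6 exons) had 6.98, 4.32 and 6.26 FPKM in knockdown libraries, against 15.8, 17.1 and 21.1 FPKM in scrambled libraries. The groups were far apart, with each knockdown library under 7 FPKM and each scrambled library over 15. On the log2 scale Lgals3bp fell by 1.55 ± 0.16 (limma adjusted p = 0.000121), the 21st lowest of all tested genes, and the knockdown mean was 32.6% of the scrambled mean.

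The galectins moved in both directions. Lgals3, the gene of its partner galectin-3, rose: it had 160, 155 and 186 FPKM in knockdown libraries, against 127, 134 and 118 FPKM in scrambled libraries (0.40 ± 0.07, limma adjusted p = 0.00169). The ratio of Lgals3bp to Lgals3 averaged (SD, n = 3 each) 0.0351 ± 0.00797 in knockdown and 0.144 ± 0.0310 in scrambled libraries, with no overlap (two-sided exact permutation p = 0.1, the smallest possible, adjusted p = 0.133). Both genes had groups apart, in opposite directions, so this ratio could not overlap and its p was fixed in advance. Lgals9 fell (−0.46 ± 0.04, limma adjusted p = 9.42e-05). Lgals1, by far the most abundant of these at 2900 to 2968 FPKM in knockdown and 2715 to 2815 FPKM in scrambled libraries, was called higher (0.08 ± 0.02, limma adjusted p = 0.0235), but it turned to −0.04 under quantile normalization and was called lower, at −0.07, after cyclic loess. Its call was also lost without knockdown library 2 or 3 or scrambled library 3.

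**Figure D2:**
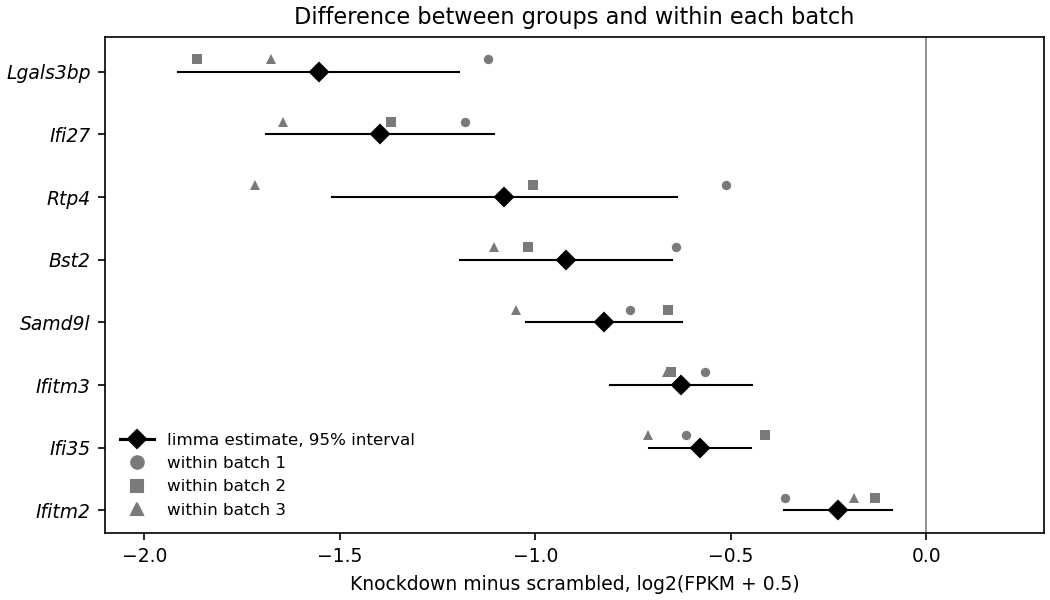
Knockdown minus scrambled difference on the log2(FPKM + 0.5) scale for the 8 tested effector genes, with black diamonds and lines for the limma estimate and its 95% interval and grey symbols for the difference within each of the 3 batches. All within-batch values lie below 0, from −1.87 for Lgals3bp in batch 2 to −0.13 for Ifitm2 in batch 2. Their sign follows from groups that do not overlap.

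The direction was the same in each batch, and the size was not. For the 8 tested genes the shared direction follows from groups that did not overlap, so it adds nothing to that. Within batches 1, 2 and 3 the median log2 difference of the 8 tested genes was −0.63, −0.83 and −1.08. Ifitm1 and Xaf1 were also below 0 in each batch, but Ifitm1 stood at only −0.05 in batch 3, from 16 fragments in either library. The share of all genes below 0 in every batch was not computed, so these signs are not read as falls. The order of the batches was not shared by all genes: Ifitm2 differed most in batch 1 (−0.36), Lgals3bp in batch 2 (−1.87), and Rtp4 in batch 3 (−1.72, against −0.51 in batch 1). Scrambled library 3 held the highest scrambled value of 7 of the 8 genes, and Ifitm2 was the exception. No knockdown library was lowest throughout: library 2 was lowest for 4 of the 8 genes, library 3 for 3 and library 1 for 1.

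Measured per length, with the lengths implied by the authors' values, the genes kept nearly the same order of level in both groups. The places of Ifitm2, Rtp4 and Xaf1 in it depend on those lengths. In knockdown libraries the means ran from Ifitm3 (92.4 FPKM) through Ifitm2 (54.2), Bst2 (18.7), Ifi27 (9.95), Ifi35 (7.91), Lgals3bp (5.86), Samd9l (1.51), Rtp4 (0.511) and Ifitm1 (0.329) to Xaf1 (0.105). Scrambled means had the same order except that Lgals3bp (18.0 FPKM) stood above Ifi35 (12.1), as it did in each scrambled library and in no knockdown library. The values of Rtp4 and Ifitm1 overlapped in knockdown libraries, as did those of Bst2 and Ifi27 and of Ifitm1 and Xaf1 in scrambled libraries. The 10 genes summed to 195, 176 and 204 FPKM in knockdown libraries, against 296, 280 and 341 FPKM in scrambled libraries, and Ifitm3 and Ifitm2 made up most of each sum.

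**Figure D3:**
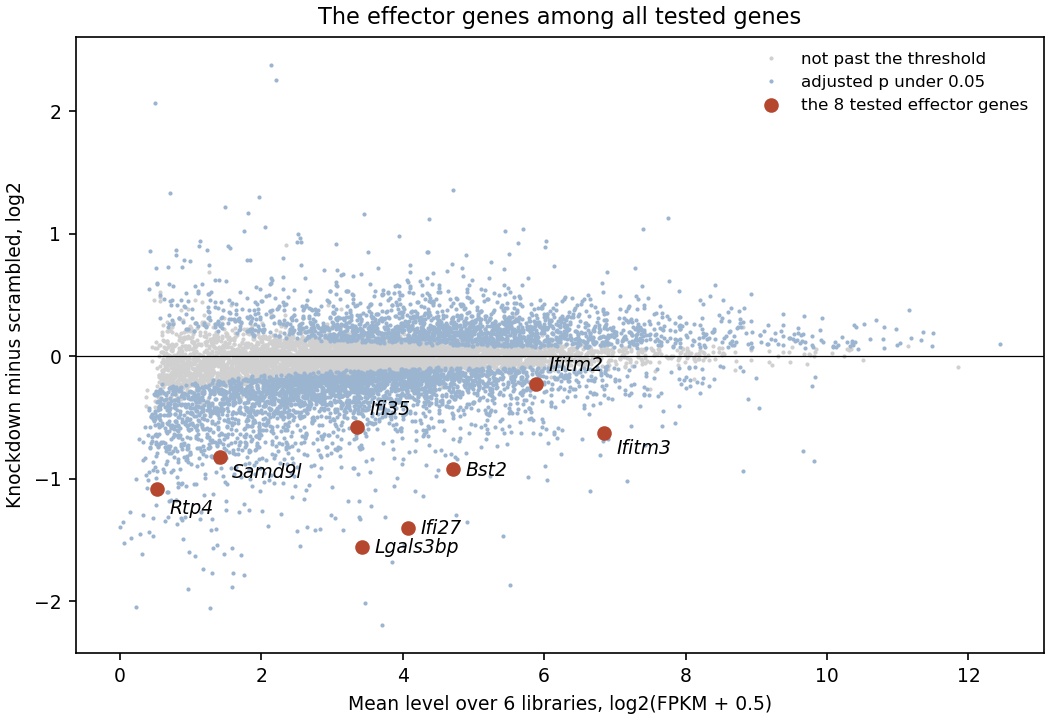
Mean level over the 6 libraries (horizontal, log2(FPKM + 0.5)) against the knockdown minus scrambled difference (vertical, log2) for the 10311 tested genes, in blue where the adjusted p is under 0.05, with the 8 tested effector genes in red. Ifi27 (−1.40), Lgals3bp (−1.55) and Bst2 (−0.92) lie near the lower edge of the cloud at their level, while Ifitm2 (−0.23) lies within it.

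Of 4 genes whose products handle or bind IFITM3, 1 passed the test, and 2 more did so under another scaling. Nedd4, a ubiquitin ligase that marks IFITM3 for breakdown, fell (219, 225 and 235 FPKM in knockdown libraries, against 264, 266 and 268 FPKM in scrambled libraries, −0.23 ± 0.03, limma adjusted p = 0.000405). Zdhhc20, which attaches palmitate to IFITM3, stood at −0.07 (limma adjusted p = 0.0955), and Zmpste24, a membrane protease with which human IFITM3 acts, at 0.08 (adjusted p = 0.0925). Zdhhc20 was called lower after rescaling to TPM (−0.12, adjusted p = 0.0187), and Zmpste24 was called higher under median centring (0.15, adjusted p = 0.0139) and without knockdown library 3 (0.11, adjusted p = 0.0325). Vapa, whose protein binds IFITM3 in human cells, stood at 0.01 (adjusted p = 0.900, 95% interval −0.07 to 0.08). Of the 9 partner genes, 3 fell (Nmi, Lgals9 and Nedd4), 2 rose (Lgals3 and Lgals1) and 4 did not pass, shares close to the 31.1% and 19.8% over all tested genes.

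Upstream of these effectors, 6 of 9 STAT and IRF genes fell, while the 1 of 4 receptor genes that fell is near the share of all tested genes. Of 19 tested genes of interferon reception, JAK-STAT signalling, IRFs and feedback, 11 fell and 1 rose, with a median log2 fold change of −0.22 (31.1% and 19.8% of all tested genes did so). Among the 11, the feedback gene Usp18, was named after its values were seen and passed the filter only through the scrambled libraries, at 0.413, 0.0868 and 0.181 FPKM in knockdown libraries, against 1.46, 1.30 and 2.45 FPKM in scrambled libraries. Ifnar1, a subunit of the type I interferon receptor, had means (SD, n = 3 each) of 11.5 ± 0.511 FPKM in knockdown and 12.1 ± 0.0973 FPKM in scrambled libraries and did not pass (−0.07, limma adjusted p = 0.183, 95% interval −0.17 to 0.02). Ifnar2, the other subunit, fell by 0.20 on the log2 scale (limma adjusted p = 0.0175), a call lost under median centring, quantile normalization and cyclic loess and without knockdown library 1 or scrambled library 3.

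Stat2 and Irf9, whose products belong to the complex that binds the response element, both fell. Stat2 had 2.47, 2.23 and 2.26 FPKM in knockdown libraries, against 4.19, 4.71 and 4.96 FPKM in scrambled libraries (−0.86 ± 0.07, limma adjusted p = 6.34e-05). Irf9 had 4.85, 4.61 and 5.20 FPKM, against 7.35, 7.91 and 11.1 FPKM in scrambled libraries (−0.77 ± 0.13, adjusted p = 0.00143). In both the groups were apart. Irf7, an interferon-induced activator of further interferon, had 1.30, 0.382 and 0.357 FPKM in knockdown libraries, against 2.16, 2.50 and 3.27 FPKM in scrambled libraries, and knockdown library 1 stood above the other knockdown libraries (−1.49 ± 0.27, adjusted p = 0.00199). Irf5, the gene that rose, was named after its values were seen and had 6.98, 6.33 and 8.38 FPKM in knockdown libraries, against 3.87, 4.20 and 4.18 FPKM in scrambled libraries (0.75 ± 0.09, adjusted p = 0.000280).

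**Figure D4:**
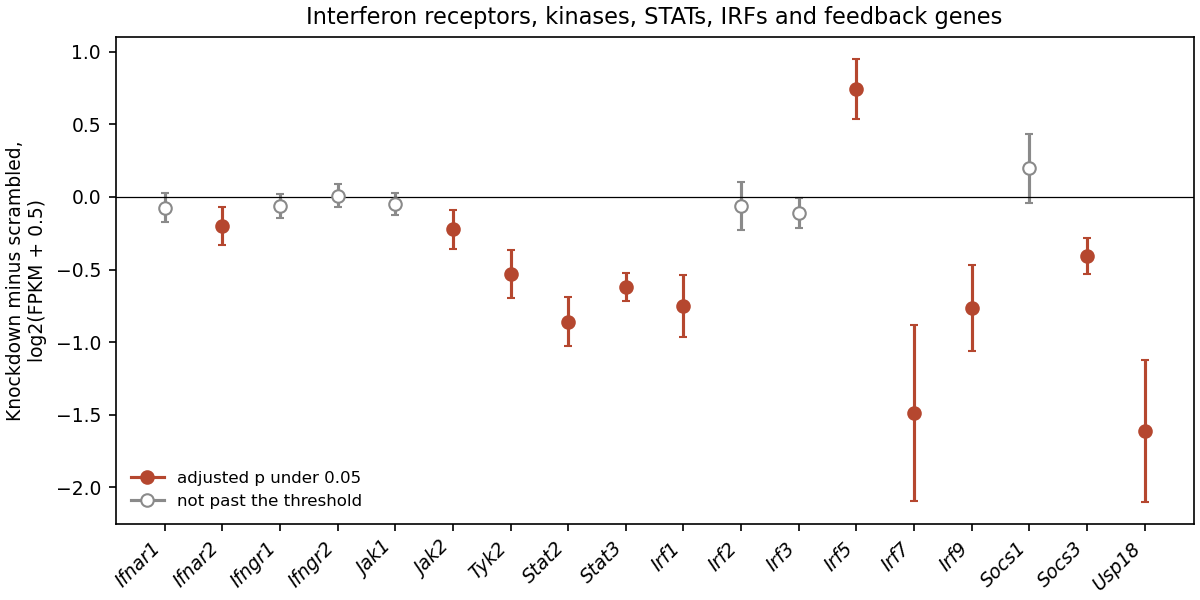
Knockdown minus scrambled difference on the log2(FPKM + 0.5) scale for 18 of the 19 tested genes of interferon reception, kinases, STATs, IRFs and feedback, with 95% intervals, filled where the adjusted p is under 0.05. Ifnar1 (−0.07) lies near 0, Stat2 (−0.86), Irf9 (−0.77) and Irf7 (−1.49) lie below it and Irf5 (0.75) above.

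Other interferon-stimulated genes fell as well. Of 46 listed names, chosen with earlier results of these data known, 41 were in the table and 22 were tested. All 22 fell, where 31.1% of all tested genes did. Their median log2 fold change was −0.82, beside −0.87 for the effectors. Without the filter, 33 of the 41 were called lower and 0 higher, where 3269 of all 19877 genes were called lower and 1788 higher. Of the 22, 4 passed the filter only through the scrambled libraries. Isg15, a ubiquitin-like modifier, had 6.35, 4.88 and 5.48 FPKM in knockdown libraries, against 17.1, 15.7 and 20.4 FPKM in scrambled libraries (−1.59 ± 0.11, limma adjusted p = 2.59e-05). Helz2, a helicase (−0.83), the RNA sensor Rigi (−0.97) and Parp9 (−0.96) were the other 3 of smallest p. The falls of Ifi27 and Lgals3bp were close in size to that of Isg15. Ifitm2 (95% interval −0.36 to −0.09) had an interval that met that of the smallest fall among the 22, Ifit2 (−0.27, −0.45 to −0.09), which was named after its values were seen.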

How the data were processed

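Poly(A) RNA captured on beads was sequenced from 6 libraries, per the labels' protocols. The authors deposited 1 table of FPKM values per gene and library. The submitters' processing notes name GRCm38, mm10 and GRCm39 with no role, and the sources used here name no aligner, counter or strand setting. The members and lists were chosen with earlier results of these data known.

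Genes that reached 1 FPKM in 3 or more of 6 libraries were compared as log2(FPKM + 0.5) with limma 3.58.1 in R 4.3.3 (variance trend on the mean level, two-sided, Benjamini-Hochberg over all tested genes), since FPKM are not counts. On this scale the fold change of a low gene comes out too small. Errors are SE after a log2 fold change and SD after an FPKM. Ratios were tested with scipy 1.17.1.

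Since each fragment adds the same amount to a gene's FPKM in a library, fragments were recovered. The smallest whole numbers within 0.002 fitted all 19877 genes, so fragments of low genes may be understated. Libraries of a group differed beyond sampling noise (chi-square per gene 3.16 to 12.5, where 1 is noise alone). The procedure was also run on simulated data, in which far fewer genes changed than were called here and no trend with level was set. That run does not bear on how far the calls in these data can be trusted.

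Because each batch of the labels holds 1 library of each group, the number pairs libraries. Deviations from the group means correlated at 0.0859, 0.012 and 0.189 within batches 1, 2 and 3, across genes, which are not independent replicates. Between libraries of different batches they correlated at −0.173 to 0.114, a range that covers the values of batches 1 and 2. Named genes were all members, Ifit1, all listed paralogs and partners, 6 upstream genes, of which 1 is not reported here, and the 4 other interferon-stimulated genes of smallest p. Positions came from GENCODE M21 and promoters from RefSeq.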

Additional observations from a re-analysis of the deposited data

How the results depend on the processing

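Across 17 alternatives (2 pseudocounts, 2 filters, rescaling to TPM, median centring, quantile normalization, cyclic loess, no variance trend, limma-voom, the replicate block and each library left out), between 6 and 8 effector genes were called lower and 0 higher, 6 of 6 tested with a mean FPKM of at least 5 and 7 of 10 without the filter. Ifitm2 was the only member to lose its call. With the batch as a replicate block 8 members were called lower, as without it, and 5229 of all tested genes were called against 5255, so pairing changed no call of a member. Of the called genes 38.9% were higher (2046 higher and 3209 lower), and the split was 1540 and 4035 after rescaling to TPM, 3001 and 2293 after median centring and 2486 and 2256 under quantile normalization. Without the filter 3269 of 19877 genes were called lower and 1788 higher. With a mean FPKM of at least 5, 2042 of 7342 genes were lower. There 5 of 12 upstream genes and 7 of 7 other interferon-stimulated genes were lower, where fewer genes were tested, against 11 of 19 and 22 of 22. With each library left out in turn, 4335 to 5284 genes were called in all, 7 to 8 members, 10 to 11 upstream genes and 21 to 22 other interferon-stimulated genes. Signs turned in partner genes near 0: Xiap (0.0216) and Lgals1 (−0.0422) under quantile normalization, Lgals1 (−0.0655) under cyclic loess, and Vapa after rescaling to TPM (−0.0394), without knockdown library 3 (−0.000323) and without scrambled library 2 (−0.0107), where leaving out 1 library at a time gave −0.0107 to 0.0182. The cause of these shifts was not tested. Depth limits Ifitm1 and Xaf1, with 7 to 17 and 4 to 151 fragments per library.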
